A study of Drosophila melanogaster with 19 samples.

Results

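Axonemal dynein heavy chains are the motor subunits that move the sperm tail. The genes described here are the 5 rows of the deposited table with the symbols *Dhc16F*, *Dhc36C*, *Dhc62B*, *Dhc93AB* and *Dhc98D*, none of them on the Y chromosome, out of 12810 genes in all. RNA was sequenced from germ cell cysts of the *Drosophila melanogaster* testis, picked under the microscope with a glass needle. In a cyst, somatic cells enclose a synchronously dividing germ cell clone. The niche at the testis tip has 2 labelled libraries, as have gonialblasts (GB, the stem cell daughters). Spermatogonia are labelled at the 4-cell (S4, 2 libraries), 8-cell (S8, 2) and 16-cell stage (S16, 1). There are 3 libraries of early spermatocytes (EC). Late spermatocytes form the sets LC1, with 3 labelled libraries, and LC2, with 2, and the labels do not say how these sets differ. Arrested spermatocyte cysts of *always early* (*aly*) mutants gave 2 libraries. The labels give no genotype for the other groups, no *aly* allele, no fly age and no number of cysts per library, and they describe every sample as germline stem cell, with only the stage field setting groups apart. Nothing says which libraries came from separate animals, so a p-value here measures the spread between libraries, which may be technical.

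Dynein heavy chains are very large ATP-driven motors. In a motile axoneme, outer and inner rows of dynein arms slide neighbouring microtubule doublets past each other, and each arm holds heavy chains of its own type with intermediate and light chains, preassembled in the cytoplasm by dedicated factors. In the fly, motile axonemes are built in sperm and in the sensory cilia of chordotonal neurons. Spermatocytes transcribe most genes of the sperm tail before meiosis, and *aly* encodes a subunit of the tMAC complex that activates many of these genes. *Dhc16F*, *Dhc36C* and *Dhc62B* belong by sequence to the inner-arm class of heavy chains, and *Dhc93AB* belongs to the outer-arm class and is known from chordotonal neurons. *Dhc98D* is an axonemal heavy chain as well.

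The 5 genes lie apart from each other in the current annotation (BDGP6.54). *Dhc16F* lies on chromosome X from 18064483 to 18078472 on the plus strand, with 27 exons in its longest transcript and 4081 codons including the stop. *Dhc36C* lies on 2L from 17501401 to 17525515, plus strand, with 23 exons and 4065 codons. *Dhc62B* lies on 3L from 1759172 to 1771758, minus strand, and packs its 3964 codons into 9 exons. *Dhc93AB* and *Dhc98D* share arm 3R, at 21024580 to 21042499 on the minus strand (29 exons, 4496 codons) and at 28486953 to 28519398 on the plus strand (47 exons, 5080 codons). Introns set them apart from the heavy chains of the Y chromosome. The longest intron is 69 bases in *Dhc16F* and in *Dhc62B*, 815 in *Dhc93AB*, 1592 in *Dhc98D* and 4116 in *Dhc36C*, whereas *kl-2*, *kl-3* and *kl-5* on the Y have introns of up to 39011, 120259 and 53833 bases. *Dhc62B* shares 37 exon bases with *CG8001* on the opposite strand, and the labels do not say whether counting used strand.

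Levels are in RPKM, reads scaled to gene length and library size. The authors deposited 1 value per stage, a mean over its libraries, from which each library's own reads could be worked out (20 libraries, because the LC2 mean proved to hold 3). Libraries are lettered a, b and c from the largest down, and library values below run in that order. Depth ran from 810542 reads in S16 to 5108139 in *aly*. At this depth 3 reads of a member amounted to 0.0386 to 0.269 RPKM depending on gene and library, so the members could be seen at low levels in every library; this floor covers counting error only. Spermatocyte markers summed over 8 genes reached 343 to 918 RPKM in EC libraries, 810 to 1006 in LC1 libraries, 987 to 1214 in LC2 libraries and 593 to 646 in those of *aly*. In S16 they summed to 4.88 RPKM, and 5 of the 8 were at 0. The *aly* gene itself stood at 31.9 RPKM in *aly* cysts, against 103 for EC, 64.4 for LC1 and 51.0 for LC2.

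**Figure D1:**
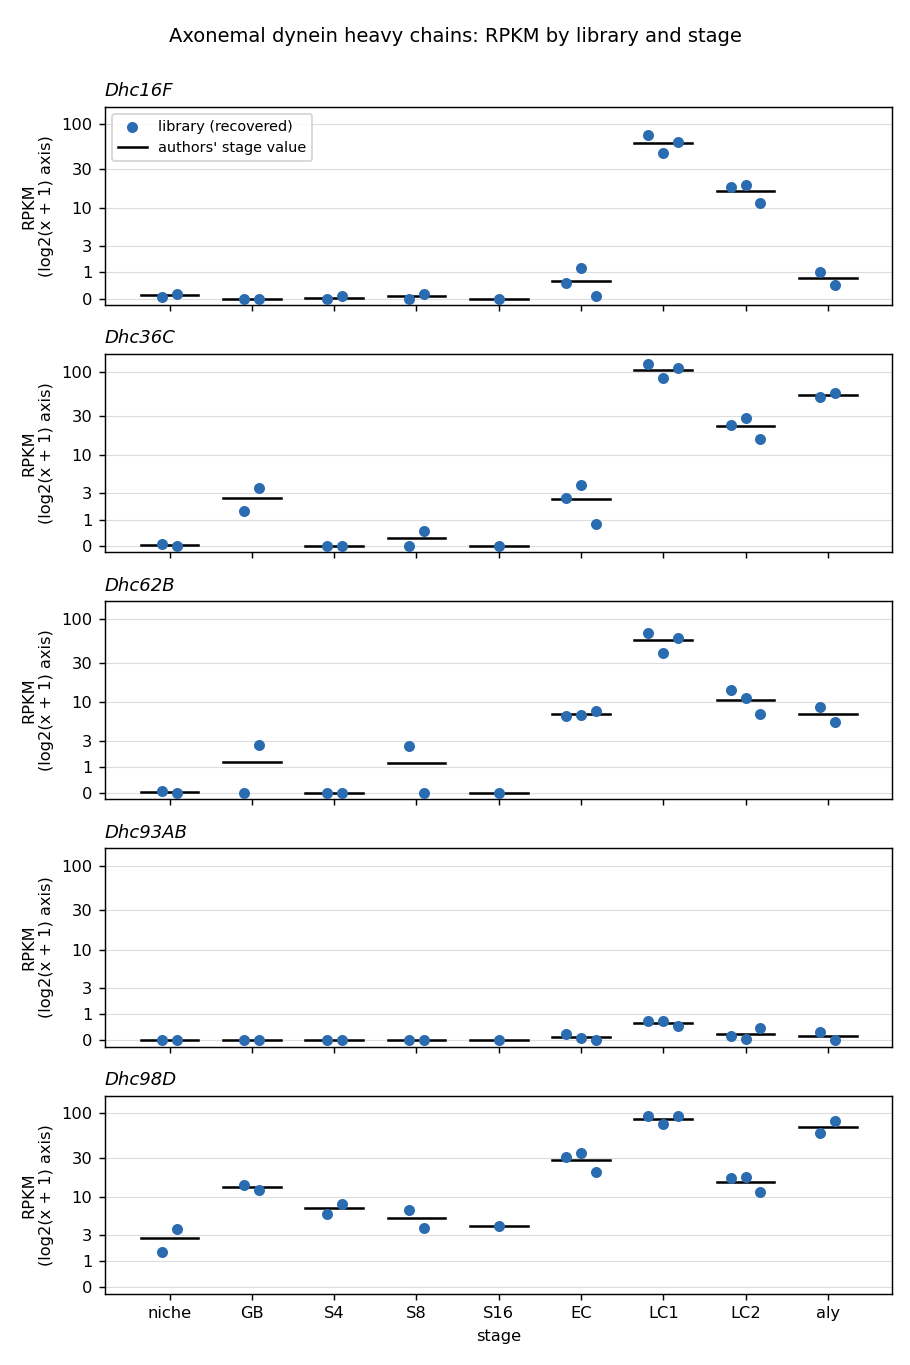
Level of each of the 5 heavy chains (vertical axis, RPKM on a log2(x + 1) axis) by stage (horizontal axis); each point is 1 recovered library and each bar is the authors' stage value. *Dhc36C* and *Dhc98D* are high in both the LC1 and the *aly* libraries, *Dhc16F* and *Dhc62B* are high in LC1 and low in *aly*, and *Dhc93AB* stays under 1 RPKM in every library.

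*Dhc16F*, an inner-arm heavy chain, was close to silent before the late spermatocyte stages. The authors' stage value was 0 in GB and S16, 0.0305 RPKM in S4, 0.0705 in S8, 0.10 in the niche and 0.610 in EC. The EC libraries held 10, 20 and 1 reads of it. In LC1 it reached 75.0, 46.0 and 62.5 RPKM, and in LC2 18.5, 19.3 and 11.8 RPKM. The *aly* libraries were at 1.03 and 0.428 RPKM, within the EC range of 0.0753 to 1.25. The late libraries therefore stood above all others without overlap, and LC1 above LC2.

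*Dhc36C*, another inner-arm heavy chain, was the most abundant of the 5 in LC1. Its 3 EC libraries gave 2.59, 4.01 and 0.764 RPKM. Its LC1 libraries gave 122, 84.1 and 109 RPKM, and its LC2 libraries 23.7, 28.2 and 16.1 RPKM. The *aly* libraries gave 49.8 and 55.8 RPKM, below every LC1 library and above every LC2 library. GB held 1.5 and 3.60 RPKM, which overlapped EC. The other early stages were nearly empty, with 0 reads in S4 and S16, at most 1 in a niche library, and 0 and 13 in the S8 libraries.

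*Dhc62B* was already present in early spermatocytes. Its EC libraries agreed closely at 6.69, 6.83 and 7.74 RPKM. Its LC1 libraries gave 68.7, 39.5 and 59.8 RPKM, and its LC2 libraries 14.2, 11.4 and 7.04 RPKM. The *aly* libraries gave 8.74 and 5.58 RPKM and overlapped both EC and LC2. Before EC its reads came nearly all from single libraries, with 1 in the niche, 58 in 1 GB library and 0 in the other, and 110 in 1 S8 library and 0 in the other.

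*Dhc98D* was the member found at every stage. The 2 niche libraries gave 1.55 and 3.74 RPKM, and GB gave 14.1 and 12.1. The spermatogonial libraries gave 5.95 and 8.17 RPKM in S4, 6.69 and 3.86 in S8 and 4.07 in S16. EC then gave 30.3, 34.3 and 20.1 RPKM, LC1 92.3, 73.6 and 91.6, and LC2 17.1, 17.4 and 11.5. The *aly* libraries were at 58.6 and 79.7 RPKM. They overlapped LC1 and lay above all EC libraries, while LC2 lay below EC and overlapped GB.

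*Dhc93AB*, the outer-arm member, was close to absent from these cysts. No read of it was recovered in any library from niche to S16, where 3 reads would be at most 0.240 RPKM. EC libraries held 4, 1 and 0 reads, LC1 30, 29 and 11, LC2 5, 1 and 6, and *aly* 15 and 0. The highest value was 0.663 RPKM in LC1, and LC1 lay above LC2 without overlap. It fell below the minimum of 1 RPKM in 2 stage columns or 2 libraries, so it entered neither test, and 4 of the 5 members were tested.

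The comparisons were read in both available ways. Stage values were compared as log2(RPKM + 1) and called at a 4-fold difference, with no error. The recovered libraries were fitted with limma on the same scale, and a gene rose or fell where the adjusted p was under 0.05 with at least 8 RPKM on the higher side. The pseudocount of 1 makes differences of weakly expressed genes smaller than their ratio of levels. A whole cyst was measured, so fewer cells of a type and less RNA per cell cannot be told apart. Comparisons with EC share the EC libraries, and those with late spermatocytes share LC1 and LC2, so values are given side by side without counting them as separate evidence.

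Between spermatogonia (S4, S8 and S16 together) and EC, *Dhc98D* rose. Its stage value went from 5.75 to 28.2 RPKM, a limma log2 difference of 2.12 ± 0.34 (SE, adjusted p = 0.000144). *Dhc62B* went from 0.496 to 7.09 RPKM, a limma difference of 2.65 ± 0.47 (adjusted p = 0.000375), and *Dhc36C* from 0.0930 to 2.45 RPKM, a difference of 1.55 ± 0.39 (adjusted p = 0.00535). Neither reached the minimum of 8 RPKM, so neither was called. *Dhc16F* differed by 0.57 ± 0.32 (adjusted p = 0.18). Among the 4 tested, 2 (*Dhc62B* and *Dhc98D*) were at least 4-fold higher in stage values, where 19.8% of all 11814 genes tested were. By limma 1 of 4 rose, where 22.2% of 12426 genes rose. The members' median limma difference was 1.84 against 0.48 for all genes. Longer genes were also higher in EC. In stage values the median difference was 0 for 6846 genes under 2 kb. It was 1.25 for 148 other genes of 10 kb or more, the length class of the members, and 1.89 for the members. Of those 148 genes, 33.1% were at least 4-fold higher in EC. The part of length in this step was not tested. With quantile scaling of the stage columns no member reached 4-fold. Removing S8 library b or EC library b took *Dhc98D* just under the 4-fold limit (a log2 difference of 1.96 without the EC library) and left 1 member above it. The 5 sensory neuron markers summed to 0.116 to 4.74 RPKM in spermatogonial libraries and 1.34 to 3.11 in EC libraries, and spermatocyte markers went from 4.88 to 117 RPKM in spermatogonia to 343 to 918 RPKM in EC. Muscle sheath markers summed to 15.3 to 202 RPKM in spermatogonial libraries and 2.03 to 3.68 in EC. Of these 5 markers 3 fell by limma, *Act57B* by 3.09, *Mlc2* by 3.71 and *Tm2* by 3.90 on the log2 scale. The part of these markers in the members' differences was not tested.

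From EC to late spermatocytes (LC1 and LC2 weighted 3 to 2), the 3 inner-arm chains rose. *Dhc16F* went from 0.610 to 43.3 RPKM, a 71.0-fold ratio of levels and a limma log2 difference of 4.58 ± 0.31 (adjusted p = 2.37e-08). *Dhc36C* went from 2.45 to 72.0 RPKM, 29.4-fold, with a limma difference of 4.18 ± 0.38 (adjusted p = 2.94e-07). *Dhc62B* went from 7.09 to 38.0 RPKM, 5.36-fold, with a difference of 1.87 ± 0.46 (adjusted p = 0.00308). Both ways of calling thus gave 3 of 4, where 22.6% of genes were 4-fold higher and 23.1% rose. *Dhc98D* did not pass, at 0.63 ± 0.33 (adjusted p = 0.129), and what it did depended on the set. Against LC1 alone its difference was 1.60 (adjusted p = 0.00297), and against LC2 alone it was -0.83 (adjusted p = 0.0819). *Dhc62B* also lost its call against LC2 alone, at 0.51 (adjusted p = 0.46), while *Dhc16F* and *Dhc36C* rose against either set, by 5.31 and 5.05 for LC1 and by 3.48 and 2.87 for LC2. Somatic cyst cell markers, 4 genes, summed to 21.4 to 50.6 RPKM in EC, 69.3 to 118 in LC1 and 53.0 to 76.4 in LC2. Of these 4, *eya* and *so* rose by limma, while *tj* stood at 7.88 RPKM in EC and 0.910 in late spermatocytes. Its limma difference was -1.95 (adjusted p = 0.0456), and it was not called only because it was under 8 RPKM. Muscle sheath markers summed to 2.03 to 3.68 RPKM in EC and 8.79 to 38.3 in late libraries, and 1 of 5 (*Mlc2*) rose. *Mhc* and *Act57B* differed by 1.44 and 1.95 (limma, adjusted p = 0.00414 and 0.0115). At 2.75 and 5.89 RPKM in late spermatocytes they were under the minimum of 8. Hub markers summed to 3.13 to 4.43 RPKM in EC and 16.6 to 40.2 in late libraries, and 1 of 3 (*os*) rose, from 0.397 to 20.3 RPKM. The 3 early germ cell markers all fell. The part of these markers in the members' difference was not tested.

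**Figure D2:**
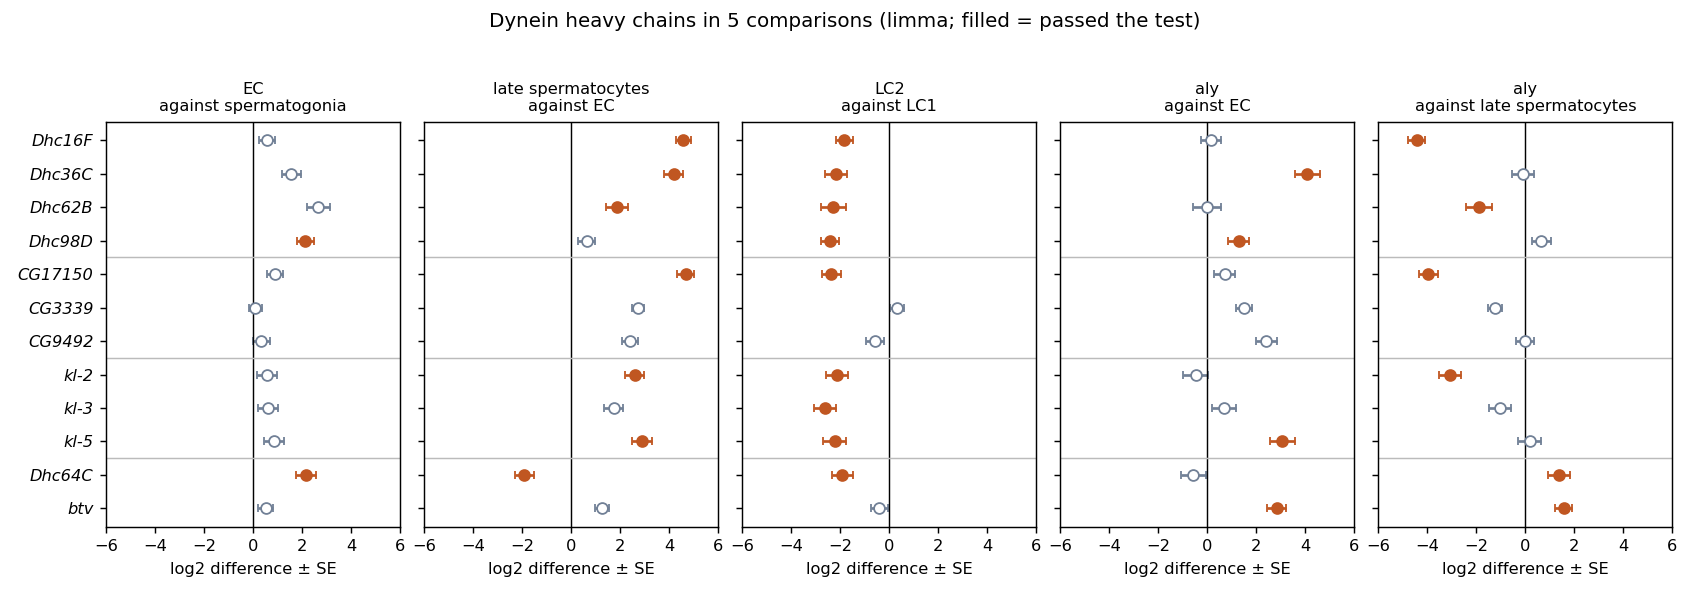
Limma log2 difference ± SE (horizontal axes) of 12 dynein heavy chains (rows) in 5 comparisons (panels); filled points passed the test. In the *aly* panels *Dhc36C*, *Dhc98D* and *kl-5* rose against EC and showed no called difference from late spermatocytes. *Dhc16F*, *Dhc62B*, *CG17150* and *kl-2* fell against late spermatocytes.

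The late sets differed sharply in these genes, and all 4 tested members fell from LC1 to LC2. *Dhc98D* went from 85.8 to 15.3 RPKM, a limma log2 difference of -2.43 ± 0.38 (adjusted p = 0.00203). *Dhc36C* went from 105 to 22.7 RPKM, a difference of -2.18 ± 0.44 (adjusted p = 0.0105). *Dhc62B* went from 56.0 to 10.9 RPKM, a difference of -2.28 ± 0.53 (adjusted p = 0.0229), and *Dhc16F* from 61.2 to 16.5 RPKM, a difference of -1.83 ± 0.36 (adjusted p = 0.00856). Only 3.36% of genes fell, and 2.37% were at least 4-fold lower in stage values, as were 3 of the 4 members. No LC2 library reached any LC1 library in any of the 4. The calls for *Dhc36C* and *Dhc62B* were lost when LC1 library a (adjusted p = 0.0501 and 0.0824), LC1 library c (0.0509 and 0.0869) or LC2 library c (0.0613 and 0.111) was removed, which left 2 members called, and that for *Dhc62B* also without LC2 library b (0.0694). With a pseudocount of 0.1, 1 member was called.

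Gene length moved with this difference. The lengths behind the members' values ran from 11982 to 15850 bases. That of *Dhc98D* is an annotated transcript length, and the others were fitted as lengths that give whole reads in every library. Over all genes tested other than the members, the median LC2 minus LC1 difference of stage values was 0.34 for 6846 genes under 2 kb, -0.51 for 3877 of 2 to 5 kb, -1.06 for 892 of 5 to 10 kb and -1.16 for 148 of 10 kb or more. Of the last group, 16.2% were at least 4-fold lower in LC2. The members lay below that median as well. Among 152 genes of 10 kb or more, counted from the lowest, *Dhc98D* ranked 9, *Dhc62B* 15, *Dhc36C* 17 and *Dhc16F* 33. Reverse transcription started from poly-dT primers, per the labels' protocols, and the part of length or RNA quality in the difference was not tested. Other heavy chains fell by limma from LC1 to LC2 as well: *kl-2* by -2.13, *kl-3* by -2.64, *kl-5* by -2.22, *CG17150* by -2.36 and *Dhc64C* by -1.91. The calls of *kl-2* and *kl-3* were lost with quantile scaling. *CG9492*, *btv* and *CG3339* were not called. *CG3339* of 14584 bases gave 7.24, 4.01 and 5.45 RPKM in LC1 and 7.63, 9.28 and 4.73 in LC2, which overlapped (limma 0.31 ± 0.29, adjusted p = 0.624). *CG3339* shares 762 exon bases with an antisense RNA gene, *asRNA:CR44287*, so reads of the pair cannot be told apart if counting ignored strand. It ranked 146 of the 152 long genes.

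Between LC1 and LC2, 4.47% of all genes passed the limma test in either direction. Of 8 spermatocyte markers 1 passed between LC1 and LC2, *fzo*, a mitofusin that acts after meiosis, at 30.9 RPKM in LC1 and 217 in LC2. The other 7 had limma differences between -0.99 (*can*) and 0.52 (*nht*), and the median of the 8 was -0.01. Muscle sheath markers summed to 17.5 to 38.3 RPKM in LC1 and 8.79 to 15.5 in LC2, without overlap. *Mhc* had a limma difference of -1.76 (adjusted p = 0.0274) but was under the minimum of 8 RPKM, at 4.25 in LC1. *Act57B* differed by -2.14 (adjusted p = 0.0787). No gene of the muscle sheath, hub, somatic cyst cell, early germ cell or sensory neuron lists was called. The sensory neuron markers were all under 8 RPKM and could not be. The part of these markers in the members' difference was not tested.

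**Figure D3:**
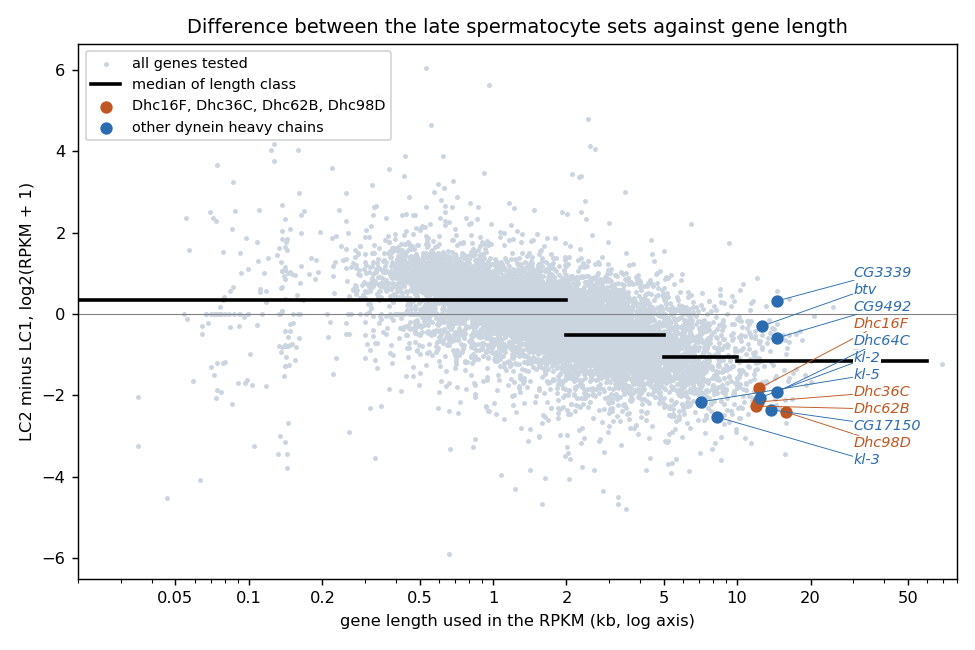
LC2 minus LC1 difference of log2(RPKM + 1) of stage values (vertical axis) against the gene length used in the RPKM (horizontal axis, kb, log scale); grey points are all genes tested, black lines are medians of 4 length classes without the members. *Dhc16F*, *Dhc36C*, *Dhc62B* and *Dhc98D*, in orange, lie between -1.83 and -2.41, below the median of -1.16 for genes of 10 kb or more, while *CG3339*, *btv* and *CG9492* lie above it.

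Of the members, 2 were high in arrested *aly* cysts. Against EC, *Dhc36C* rose from 2.45 to 52.8 RPKM, a 21.5-fold ratio of levels and a limma log2 difference of 4.09 ± 0.49 (adjusted p = 3.27e-05). *Dhc98D* rose from 28.2 to 69.2 RPKM, a difference of 1.28 ± 0.42 (adjusted p = 0.043). *Dhc16F* and *Dhc62B* differed by 0.15 ± 0.40 (adjusted p = 0.864) and -0.01 ± 0.59 (adjusted p = 1). By limma 2 of 4 members rose, where 8.48% of genes did. At 4-fold 1 of 4 was higher, where 8.36% of genes were. The *Dhc98D* call was lost on removal of EC library a (adjusted p = 0.0518), EC library c (0.111), *aly* library a (0.136) or *aly* library b (0.294), which left 1 member called. The 5 sensory neuron markers summed to 7.29 to 18.2 RPKM in *aly* and 1.34 to 3.11 in EC. Each was under the minimum of 8 RPKM in both groups (highest *n-syb*, 7.54 in *aly*), so none could be called. Muscle sheath markers summed to 10.6 to 20.1 RPKM in *aly* and 2.03 to 3.68 in EC. These 5 were also under 8 RPKM in both groups and could not be called. In stage values *Mhc* at 6.27 against 0.130 RPKM and *Tm2* at 3.92 against 0.0962 were past 4-fold. Early germ cell markers summed to 59.3 to 60.9 RPKM in *aly* and 124 to 294 in EC, and 1 of 3 (*vas*) fell, from 129 to 7.19 RPKM. Somatic cyst cell markers summed to 34.8 to 42.6 RPKM in *aly* and 21.4 to 50.6 in EC with none called. Of these, *tj* (0.579 against 7.88 RPKM) and *so* were under 8 RPKM and could not be called. Hub markers summed to 5.77 to 12.7 RPKM in *aly* and 3.13 to 4.43 in EC, with every gene again under 8 RPKM. The part of these markers in the members' differences was not tested.

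Against late spermatocytes the other tested members were low in *aly* cysts. *Dhc16F* fell from 43.3 to 0.727 RPKM in *aly*, 59.6-fold lower, with a limma log2 difference of -4.43 ± 0.36 (adjusted p = 1.59e-07). *Dhc62B* fell from 38.0 to 7.16 RPKM, 5.30-fold lower, with a difference of -1.89 ± 0.53 (adjusted p = 0.0108). *Dhc36C* at 52.8 against 72.0 RPKM and *Dhc98D* at 69.2 against 57.6 RPKM were not called, with differences of -0.09 ± 0.44 (adjusted p = 0.903) and 0.65 ± 0.38 (adjusted p = 0.197). With quantile scaling *Dhc98D* passed, at 1.03 (adjusted p = 0.0101). By limma 2 of 4 members fell, where 17.5% of genes fell, and at 4-fold 2 of 4 were lower, where 17.4% were. The *Dhc62B* call was lost without *aly* library b (adjusted p = 0.136; 1 member then called) and against LC2 alone (-0.52, adjusted p = 0.509). The *Dhc16F* difference was -5.16 against LC1 alone and -3.33 against LC2 alone. *Dhc98D* changed sides with the set, at -0.32 against LC1 alone (adjusted p = 0.654) and 2.11 against LC2 alone (adjusted p = 0.000917). The *aly* libraries of *Dhc36C* lay below every LC1 library and above every LC2 library. Its uncalled difference of -0.09 thus averages sets that lie on opposite sides of *aly*. Spermatocyte markers summed to 593 to 646 RPKM in *aly* libraries and 810 to 1214 in late libraries, with *fzo* and *twe* fallen by limma. Of the hub markers *os* fell, from 20.3 to 1.71 RPKM. Of 3 early germ cell markers 1 rose, *bam*, at 43.1 RPKM in *aly*, 11.8 in LC1 and 6.78 in LC2. Sensory neuron markers summed to 7.29 to 18.2 RPKM in *aly*, 2.45 to 5.59 in LC1 and 2.09 to 4.45 in LC2. Each was under 8 RPKM, so none could be called. No somatic cyst cell or muscle sheath marker was called. The part of these markers in the members' differences was not tested.

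Ratios between members inside a library do not depend on the scaling of the libraries. *Dhc16F* over *Dhc36C* was 0.00767 and 0.0206 in the 2 *aly* libraries and 0.546 to 0.780 in the 6 late libraries. *Dhc62B* over *Dhc36C* was 0.0999 and 0.175 in *aly* and 0.405 to 0.598 in the late libraries. *Dhc98D* over *Dhc36C* was 1.18 and 1.43 in *aly* and 0.616 to 0.875 in the late libraries. None of these ranges overlapped, although LC1 and LC2 differ so much in level. An exact permutation test of 2 against 6 libraries, two-sided, gave p = 0.0714 for each of the 6 pairs of members (0.0714 after Benjamini-Hochberg adjustment), which is the smallest this design allows. In EC the same ratios were 0.0985 to 0.313, 1.70 to 10.1 and 8.57 to 26.3, so *Dhc98D* and *Dhc62B* led there and *Dhc36C* and *Dhc16F* trailed.

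**Figure D4:**
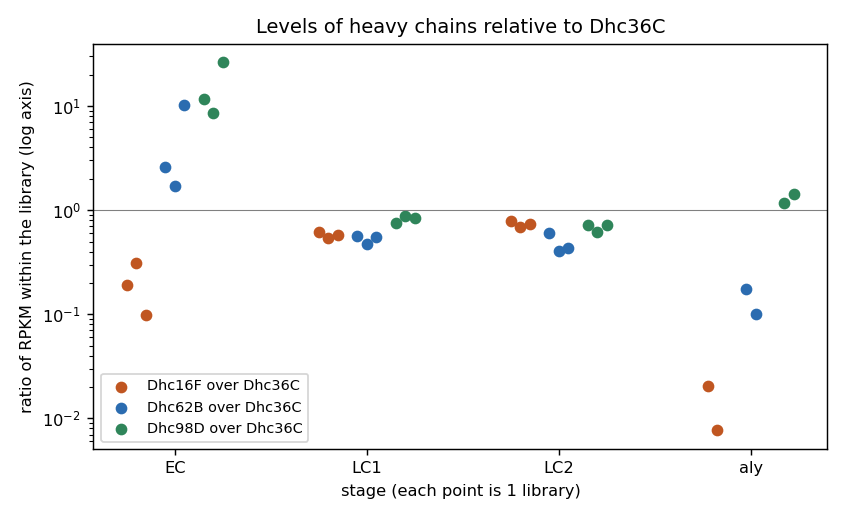
Ratio of RPKM of 3 members to *Dhc36C* within each library (vertical axis, log scale) by stage (horizontal axis); each point is 1 library. The *Dhc16F* ratio is 0.546 to 0.780 in all 6 late libraries and at most 0.0206 in *aly*, while the *Dhc98D* ratio is above 1 in EC and *aly* and below 1 in the late libraries.

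The 4 early steps were not tested and are given as values. From niche to GB, *Dhc98D* went from 2.64 to 13.1 RPKM, *Dhc36C* from 0.0289 to 2.55 and *Dhc62B* from 0.0293 to 1.27. The GB libraries lay above the niche libraries for *Dhc98D* and *Dhc36C*, and overlapped them for *Dhc62B*. In GB the 5 sensory neuron markers were all at 0. The 8 spermatocyte markers summed to 22.3 to 52.2 RPKM there, mostly from *aly*, which stood at 32.3 RPKM in GB, 0.309 in niche and 0 in S4 and S8. Of the other 7, *mia* stood at 3.98 RPKM in GB, *twe* was low, and *can*, *sa*, *nht*, *fzo* and *bol* were at 0. Muscle sheath markers summed to 101 to 178 RPKM in GB, 25.6 to 91.2 in niche and 37.2 to 202 in S4. The part of these markers in the early values was not tested. From GB to S4, *Dhc98D* went from 13.1 to 7.06 RPKM without overlap, and *Dhc36C* and *Dhc62B* went to 0. From S4 to S8, *Dhc98D* went from 7.06 to 5.28 RPKM with overlap. S16 has 1 library, at 4.07 RPKM for *Dhc98D* and 0 reads for the other members, where 3 reads would be 0.240 to 0.269 RPKM.

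The table holds other heavy chains, on and off the Y chromosome. *CG17150*, named *Dnah3* in RefSeq, is another inner-arm chain. It stood at 91.3 RPKM in LC1, 17.0 in LC2, 2.07 in *aly* and 1.02 in EC, rose from EC to late spermatocytes by 4.67 ± 0.34 (limma, adjusted p = 3.50e-08) and fell in *aly* against late spermatocytes, with a difference of -3.96 ± 0.39 (adjusted p = 9.46e-07). *CG3339* and *CG9492* (*Dhc1* in RefSeq) were low, with 5.57 and 7.49 RPKM in LC1 and 2.01 and 6.55 RPKM in *aly*. On the Y, *kl-2* was at 15.8 RPKM in LC1 and 0.104 in *aly*, where its 2 libraries held 7 and 4 reads, and it fell by limma against late spermatocytes, with a difference of -3.06 ± 0.45 (adjusted p = 5.07e-05), a call lost with quantile scaling. *kl-5*, needed for outer arms in sperm, was higher in *aly* than in LC2. It stood at 24.0 RPKM in LC1, 14.2 in *aly*, 4.59 in LC2 and 1.24 in EC, with a limma difference of 3.06 ± 0.52 against EC (adjusted p = 0.000698) and 0.19 ± 0.47 against late spermatocytes (adjusted p = 0.798). *kl-3*, also needed for outer arms, was at 9.79 RPKM in LC1 and 1.5 in *aly* (limma -1.04 ± 0.45, adjusted p = 0.0822). The lengths fitted for *kl-3* and *kl-5*, 8278 and 7122 bases, are shorter than the annotated transcripts of 13882 and 13680 bases. Their RPKM may therefore rest on partial gene models. In EC nearly all Y-chain reads came from library b, with 43 of 43 for *kl-2*, 29 of 29 for *kl-3* and 31 of 34 for *kl-5*. The same library had the highest *Dhc16F*, *Dhc36C*, *Dhc98D*, *CG17150* and *CG9492* of EC, but not the highest *Dhc62B*, *Dhc93AB* or *CG3339*.

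The cytoplasmic dynein heavy chain *Dhc64C*, which carries cargo in all cells, was highest in EC, at 49.2 RPKM. It stood at 10.7 RPKM in S8, 32.9 in *aly*, 21.9 in LC1 and 5.06 in LC2. It rose in EC against spermatogonia by 2.17 ± 0.40 (limma, adjusted p = 0.00051) and fell in late spermatocytes against EC, with a difference of -1.92 ± 0.39 (adjusted p = 0.000706), where *Dhc16F*, *Dhc36C* and *Dhc62B* rose. It fell from LC1 to LC2, at -1.91 ± 0.45 (adjusted p = 0.0238). *btv*, the heavy chain of the dynein that returns cargo inside cilia, was highest in *aly* cysts, at 9.14 RPKM against 2.87 in LC1, and rose against late spermatocytes by 1.57 ± 0.34 (adjusted p = 0.0019), a call lost with quantile scaling.

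The axonemal dynein intermediate and light chains, which complete the arms, numbered 9 in the list, 8 in the table and 7 tested. From EC to late spermatocytes 6 of 7 rose and none fell, where 23.1% of all genes rose and 20.1% fell, with a median limma difference of 3.55 against 0.11 for all genes. The highest were *CG10859*, at 281 RPKM in LC1 and 210 in LC2, and *CG6971* (*Dnali1* in RefSeq), at 230 and 345 RPKM. None passed the limma test between LC1 and LC2, where 4.47% of all genes passed and the median of the list was -0.40. In *aly* against late spermatocytes 4 of 7 fell, where 17.5% of all genes fell. These were *CG6971* (-5.89 ± 0.59, adjusted p = 1.23e-06), *CG10839* (-4.46 ± 0.51), *CG1571* (-4.45 ± 0.56) and *CG7051* (-3.83 ± 0.47). The other abundant members, *CG9313* and *CG10859*, held 141 and 147 RPKM in *aly* and were not called (-0.45 ± 0.69 and -0.74 ± 0.55). *CG6053* stayed at 0.642 RPKM or below in every stage value, like *Dhc93AB*.

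The docking and assembly factors, which build arms in the cytoplasm and anchor them, numbered 15, all tested. Between spermatogonia and EC 9 rose and none fell, where 22.2% of all genes rose and 7.10% fell. From EC to late spermatocytes 8 rose and 3 fell, where 23.1% of all genes rose and 20.1% fell. The 3 that fell were *spag* (-0.71 ± 0.25, adjusted p = 0.0243), *CG5792* (-1.29 ± 0.39) and *CG4022* (-1.81 ± 0.34). The highest in late spermatocytes were *CG17083*, at 244 RPKM in LC1 and 274 in LC2, and *CG14921* (*Dnaaf4* in RefSeq), at 160 and 306 RPKM. None passed between LC1 and LC2, where only 4.47% of all genes passed. In *aly* against late spermatocytes 7 fell, where 17.5% of all genes fell, led by *dtr* (-5.18 ± 0.53), *CG14921* (-4.87 ± 1.07), *CG13202* (-4.44 ± 0.66) and *CG17669* (*Dnaaf3* in RefSeq, -4.36 ± 0.45), and *CG4022* rose (1.08 ± 0.39, adjusted p = 0.0417), as 13.4% of all genes did. *CG11253* (*Zmynd10* in RefSeq) stood at 184 RPKM in *aly* and 174 in LC1 and was not called (0.09 ± 0.87). The median difference of the list was -0.44 against 0.06 for all genes, and 0.50 with quantile scaling, under which the same count of 7 fell.

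Of 10 genes listed as other axoneme and sperm tail parts, 9 rose from EC to late spermatocytes, where 23.1% of all genes rose. The exception, *CG32452*, fell by limma (-2.73 ± 0.72, adjusted p = 0.00477). RefSeq does not give it the name under which it was listed, so its place in the list is unsure. The highest of the list were *betaTub85D*, the testis beta tubulin, at 348 RPKM in LC1 and 428 in LC2, and *Mst98Ca*, at 265 and 422 RPKM. In *aly* against late spermatocytes 5 of 10 fell, where 17.5% of all genes fell. No called gene of these lists changed direction under quantile scaling or scaling to total reads.

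**Figure D5:**
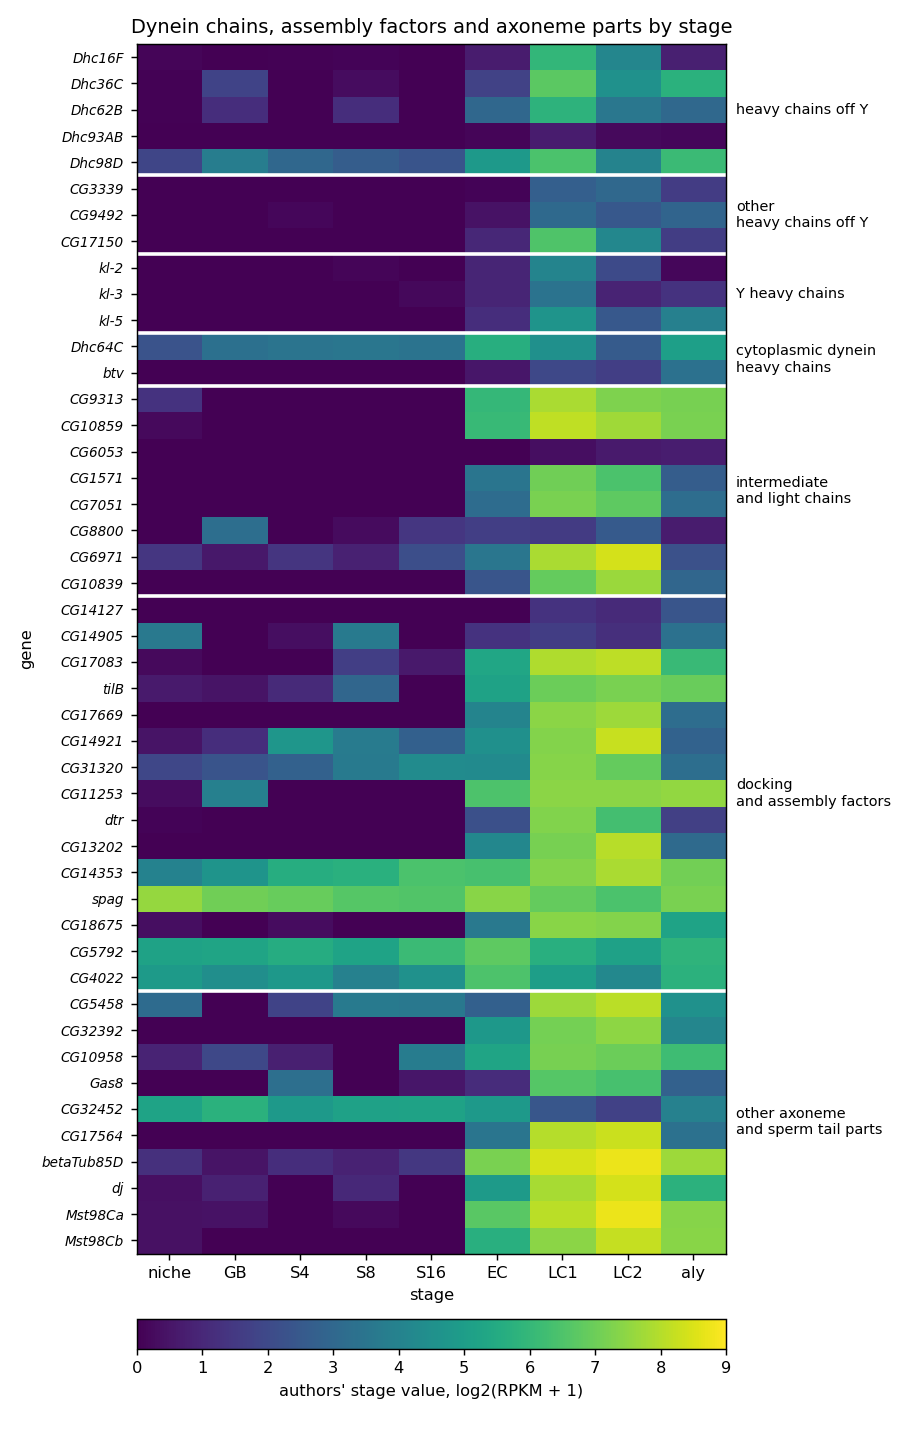
Authors' stage values as log2(RPKM + 1) (colour scale) for dynein chains, assembly factors and genes listed as other axoneme parts (rows) by stage (columns). The 5 members off the Y have their highest value in LC1. *CG6971*, *betaTub85D* and *Mst98Ca* have higher values in LC2, and *CG9313*, *CG10859*, *CG1571*, *CG7051* and *dtr* lower ones. None of these genes passed the limma test between LC1 and LC2. *Dhc36C*, *Dhc98D*, *CG9313*, *CG10859* and *CG11253* stay bright in *aly*.

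Over the 9 stage values, the genes whose log2(RPKM + 1) followed each member most closely were listed by Pearson's r among 10575 genes with at least 8 RPKM in some stage, as a description. For *Dhc16F* they were *ct* (r = 0.9999), *CG10168* and *CG30484* (0.998 each), and 540 genes had an r of 0.95 or more. For *Dhc36C* they were *CG14841* (0.975), *sls* (0.973) and *kl-5* (0.973), out of 53 genes at that level. For *Dhc62B* they were *CG14590* (0.981), *CG14190* (0.974) and *CG13700* (0.966), out of 31. For *Dhc98D* they were *Khc-73*, a kinesin motor (0.974), *CG15100* (0.970) and *bdg* (0.965), out of 17. The stages share libraries and depth, and many genes are high in the same late stages.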

How the data were processed

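The authors deposited RPKM values, 1 per gene and stage. Per the file headers the unit is cRPKM, with the c unexplained. Bowtie 0.12.7 and edgeR appear in the submitters' processing notes without a role. Build and annotation: not given in the sources used here. cDNA was primed with poly-dT and amplified, per the labels' protocols.

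Each stage value proved to be a mean over libraries of whole reads divided by gene length and library size. Whole reads of all libraries of the 9 stages were recovered for 12747 of 12810 genes (99.5%, relative tolerance 2e-14), and 63 were not. At the gene length used, none had more than 1 solution. This gave 20 libraries where 19 are labelled. Gene lengths came from the annotation for 2822 genes and were fitted for 9925, among them *Dhc16F*, *Dhc36C*, *Dhc62B* and *Dhc93AB*. A fitted length is one that gives whole reads in every library. In simulated means with the true length given, the recovery was right for 400 of 400 genes. The fitting of lengths was not simulated. Libraries carry no replicate number.

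Limma 3.58.1 (R 4.3.3) was fitted to log2(RPKM + 1) of 12426 genes with at least 1 RPKM in 2 libraries, with 9 group means, a variance trend, 11 residual and 3.9 prior degrees of freedom, Benjamini-Hochberg adjustment and two-sided tests; for S16, with 1 library, the spread of the other groups was assumed. With simulated 4-fold changes in 200 genes, 98.5 to 99.5% were found and 0.5 to 4.35% of calls were false over the 5 comparisons. The simulated spread came from genes with at least 200 reads in every library of a stage. Changed genes had a mean of at least 8 RPKM. Genes with reads in 1 library of a stage and none in another, such as *Dhc62B* in S8, may spread more. These rates may not hold for them. The 4 early steps are described without calls, because earlier work on these data found too many false calls there. Stage values were compared over 11814 genes. Spermatogonia and late spermatocytes are means weighted by labelled libraries. Positions come from Ensembl BDGP6.54 and current names from RefSeq (Release 6).

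Members, lists, comparisons and the rule for named genes were chosen with earlier results of these data known. Named were all dynein heavy chains, the 3 genes most like each member, the 2 highest genes of each list in late spermatocytes, and genes that passed against their list's direction; further list genes were named after their values were seen. Other pseudocounts, filters, scalings, fold limits, set definitions and removal of each library were tried, and the limma call without the minimum of 8 RPKM was added after seeing the data.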

Additional observations from a re-analysis of the deposited data

How the results depend on the processing

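The count of members past 4-fold between spermatogonia and EC, 2, became 4 with a pseudocount of 0.1, 0 with a pseudocount of 5, 0 with quantile scaling, 1 with scaling to total reads, 1 by limma and 1 to 2 on removal of single libraries; the limma count, 1, became 3 without the minimum of 8 RPKM. From LC1 to LC2, 3 past 4-fold became 1 with a pseudocount of 5, and 4 by limma became 1 with a pseudocount of 0.1 and 2 to 4 on removal of libraries. In *aly* against EC, 1 past 4-fold became 2 at 2-fold and 2 by limma, and the limma count of 2 became 1 with a pseudocount of 0.1 and 1 to 2 on removal of libraries. In *aly* against late spermatocytes, 2 past 4-fold became 1 with a pseudocount of 5, 1 with scaling to total reads and 1 to 2 on removal of libraries, and the limma count of 2 became 1 with a pseudocount of 0.1 and 1 to 2 on removal of libraries. The counts of 3 in late spermatocytes against EC held in every removal.

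Limma differences that changed sign were all uncalled. They were *Dhc16F* in EC against spermatogonia (-0.49, quantile scaling); *Dhc98D* in late spermatocytes as LC2 alone against EC (-0.83); *Dhc16F* in *aly* against EC (-0.56 with quantile scaling, -0.11 to 0.42 on removal of libraries); *Dhc62B* there (0.089 with scaling to total reads, -0.30 to 0.27 on removal of libraries); *Dhc36C* in *aly* against late spermatocytes (0.056 with quantile scaling, 0.12 with total reads, 1.22 against LC2 alone); and *Dhc98D* against LC1 alone (-0.32). Of the other limma values of single members under an alternative, 242 kept direction and call, 20 lost the call and 6 gained it. The cause was not tested.

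Quantile scaling moved the median gene by -0.69, -0.54, 0.13, -0.28 and 0.29 (log2, stage values) in the 5 comparisons in the order above, with late against EC second, and scaling to total reads by -0.47, -0.10, 0.15, 0.11 and 0.20. Of the 3 genes most like each member, none stayed with Spearman's rho, and without *aly* 1 stayed for *Dhc16F*, *Dhc62B* and *Dhc98D* and 0 for *Dhc36C*. No paired analysis was possible because the table holds stage means and the recovered libraries carry no replicate number. The planned description of sequences was not run, since no sequence was used here. Depth limits statements on *Dhc93AB* and on early stages, where single libraries hold few or no reads.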
